A study of Mus musculus with 4 samples.

Results

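Homeostatic microglia genes are the transcripts by which resting microglia, the resident macrophages of the brain, are told from other cells. The set described here holds 8 of them, P2ry12, P2ry13, Gpr34, Siglech, Tmem119, Cx3cr1, Slc2a5 and Csf1r, out of 27674 gene names on the array. They were found by symbol, with older and newer symbols allowed, and were covered by 11 of the 41174 probes that were not controls. The 8 were selected by name, with their log2 ratios of PMCAO over sham at 6 h and 24 h on these arrays already known, so their ratios after occlusion are described and not tested.

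Gene expression was measured in the brain of male C57BL/6J mice aged 8 to 12 weeks, with 3 mice per group. In the groups with permanent middle cerebral artery occlusion (PMCAO), a nylon filament was pushed through the right common carotid artery to block the middle cerebral artery, a model of stroke without reperfusion. In the sham groups the vessels of the neck were exposed and the wound was closed. Mice of every group received saline into the ventricle, and their brains were removed after 6 h or 24 h. The design text names the contralateral, left hemisphere as the tissue put on the arrays, while the sample labels name only brain. Each of 4 two-colour Agilent arrays carried PMCAO RNA and sham RNA of one time, with PMCAO in Cy5 on sample 1 and in Cy3 on sample 2 of each time, so a sample number is also a dye orientation. How RNA from the 3 mice of a group entered an array is not stated, nor whether samples 1 and 2 are separate RNA preparations. The p-values therefore cover the spread among these arrays alone, which may be technical. All 4 arrays lay on 1 slide. Between 66.3% and 73.7% of probes were well above background in the PMCAO channels and 67.3% to 73.6% in the sham channels. All neuron (10 of 10), astrocyte (9 of 9) and oligodendrocyte (10 of 10) markers looked up could be tested, as could 24 of 24 markers shared by microglia and other myeloid cells. The ratios of the 2 arrays of a time correlated across genes at 0.582 for 6 h and 0.671 for 24 h. Arrays of different times correlated at 0.612 and 0.628 where the dyes ran the same way and at 0.319 and 0.382 where they did not.

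Resting microglia keep their processes moving through the tissue and read signals that neurons and damaged cells release. P2ry12 and P2ry13 are receptors for ADP, Gpr34 is a receptor for lysophosphatidylserine, Cx3cr1 binds the neuronal chemokine Cx3cl1, and Csf1r is the kinase receptor for Csf1 and Il34 on which microglia depend for survival. Siglech is a sialic acid-binding lectin that signals through the adaptor Tyrobp (Dap12), Slc2a5 is a fructose transporter, and Tmem119 is a membrane protein used as a marker of microglia. After injury or inflammation, many of these transcripts are known to decline in microglia while phagocytic and inflammatory genes come up. In whole tissue, fewer cells of a type and less RNA per cell cannot be told apart.

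Each signal in what follows comes from a 60-base probe at a place given by the array files on mouse build mm7; whether that place is coding sequence or UTR is not given in the sources used here. The first 30 bases, 5′ to 3′, are shown for the 4 genes with the lowest 24 h ratios and for both probes of Cx3cr1, whose readings differed. Csf1r probes are not printed. None of the letters is marked.

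P2ry12 (chr3:59344780-59344839, minus strand): tgcacattaagatggtagaggtttaaaagg
Gpr34 (chrX:12073352-12073411, plus strand): gtccagtaatattcgcaaaatcatgtgtca
Slc2a5 (chr4:149133208-149133267, plus strand): aggccatttgcgaagacacactgagcgtgg
Siglech (chr7:52015392-52015451, plus strand): gcccactttaagtgtttggttgcatttaaa
Cx3cr1, brighter probe (chr9:119745795-119745854, minus strand): caagaatgtcttcatgcattcactgactcc
Cx3cr1, dimmer probe (chr9:119747387-119747446, minus strand): ttcttccccagttgtgacatgaagagggac

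The Cx3cr1 probes start 1592 bases apart. P2ry12 and P2ry13 are neighbours, with 8484 bases between their probes. The P2ry13 probe lies at chr3:59336236-59336295 on the minus strand and the Tmem119 probe at chr5:113015804-113015863 on the minus strand. Csf1r has 3 probes on the plus strand of chromosome 18, and that standing for the gene starts at 61520169 and ends at 61520228. The probe standing for each of the 8 genes, the brightest where there were several, was well above background in all 8 channels and had no outlier or saturated spot.

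RefSeq's table for GRCm38.p6 held a promoter window for 5 of the 8 genes (P2ry12, P2ry13, Siglech, Slc2a5 and Cx3cr1). The 250 bases before the start are printed, 5′ to 3′ on the strand of the gene, for the 3 of these with the lowest 24 h ratios and for Cx3cr1, whose lower ratio was that of 6 h. Capitals mark exact matches, on either strand, to the ETS-type letters GGAAGT or the E-box CACGTG. The motifs searched were chosen after these windows had been looked at, so a match is a description only.

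P2ry12 (chr3:59262986-59263235, minus strand): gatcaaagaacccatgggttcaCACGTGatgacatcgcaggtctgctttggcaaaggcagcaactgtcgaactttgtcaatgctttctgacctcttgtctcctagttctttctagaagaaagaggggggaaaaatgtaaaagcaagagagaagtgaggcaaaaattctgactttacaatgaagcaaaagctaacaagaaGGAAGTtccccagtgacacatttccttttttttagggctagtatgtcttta
Slc2a5 (chr4:150119094-150119343, plus strand): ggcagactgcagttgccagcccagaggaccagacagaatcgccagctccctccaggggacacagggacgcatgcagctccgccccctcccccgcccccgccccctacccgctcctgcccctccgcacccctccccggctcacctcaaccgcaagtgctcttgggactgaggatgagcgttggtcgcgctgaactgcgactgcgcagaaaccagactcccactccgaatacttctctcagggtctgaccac
Siglech (chr7:55767934-55768183, plus strand): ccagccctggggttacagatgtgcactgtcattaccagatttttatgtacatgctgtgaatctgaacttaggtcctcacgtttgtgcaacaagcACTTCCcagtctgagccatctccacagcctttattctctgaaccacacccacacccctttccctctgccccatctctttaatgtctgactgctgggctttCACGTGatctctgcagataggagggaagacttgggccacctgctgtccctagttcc
Cx3cr1 (chr9:120068297-120068546, minus strand): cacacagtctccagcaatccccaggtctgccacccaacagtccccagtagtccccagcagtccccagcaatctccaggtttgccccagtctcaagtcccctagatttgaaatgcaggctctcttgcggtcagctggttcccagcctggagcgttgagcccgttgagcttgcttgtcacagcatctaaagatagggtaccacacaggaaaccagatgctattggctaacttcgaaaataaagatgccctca

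The windows of P2ry12 and Siglech held both GGAAGT, which on its reverse strand reads ACTTCC, and CACGTG, which reads the same on both strands. Counted back from the gene start, the first base of the match to GGAAGT lay at -51 in P2ry12 and at -156 in Siglech, and that to CACGTG at -228 and -56. Over 32851 windows of the same length, 19.7% held GGAAGT and 6.02% held CACGTG. The PU.1-type letters GAGGAA, present in 23.3% of all windows, were found in that of P2ry13 alone among the 5. Neither the AP-1 letters TGACTCA (4.46% of windows) nor an IRF motif of GAAA repeated after 2 further bases (2.98%) lay in any of the 5, and no overlap between matches occurred in the printed windows. Windows differed in base composition, from 41.6% G and C in P2ry12 and P2ry13 to 66.4% in Slc2a5, against a median of 52.4% over all windows.

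At 24 h all 8 genes had lower signal in PMCAO than in sham on both arrays, and at 6 h 6 of the 8 did. The share of all genes lower on both arrays was not counted. By a stricter rule, both PMCAO levels below both sham levels, the counts were again 8 and 6. That rule was met by 28.4% of all genes at 24 h and 22.6% at 6 h. Nothing is read from these counts, because the genes were listed with these ratios known. The median log2 ratio of PMCAO over sham over the 8 was -0.40 at 6 h and -0.86 at 24 h, against -0.01 and 0.00 over all 19130 genes tested. The median per array was -0.26 and -0.53 at 6 h and -0.77 and -0.94 at 24 h, for samples 1 and 2 in that order. By limma with Benjamini-Hochberg adjustment at 0.05, 6 of the 8 (all but Cx3cr1 and Csf1r) were lower at 24 h, where 4.52% of all genes tested were lower and 7.84% higher. At 6 h 0 of the 8 passed (5 at an unadjusted p under 0.05), where 0.0366% of genes were lower and 0.815% higher. The genes were listed with these ratios known, so nothing is read from either count. P2ry12, Gpr34, Slc2a5 and Siglech were lower by at least 2-fold at 24 h, as were 0.131% of all genes. Counted from the lowest 24 h ratio of 19130 genes, they held ranks 3, 6, 7 and 23.

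**Figure D1:**
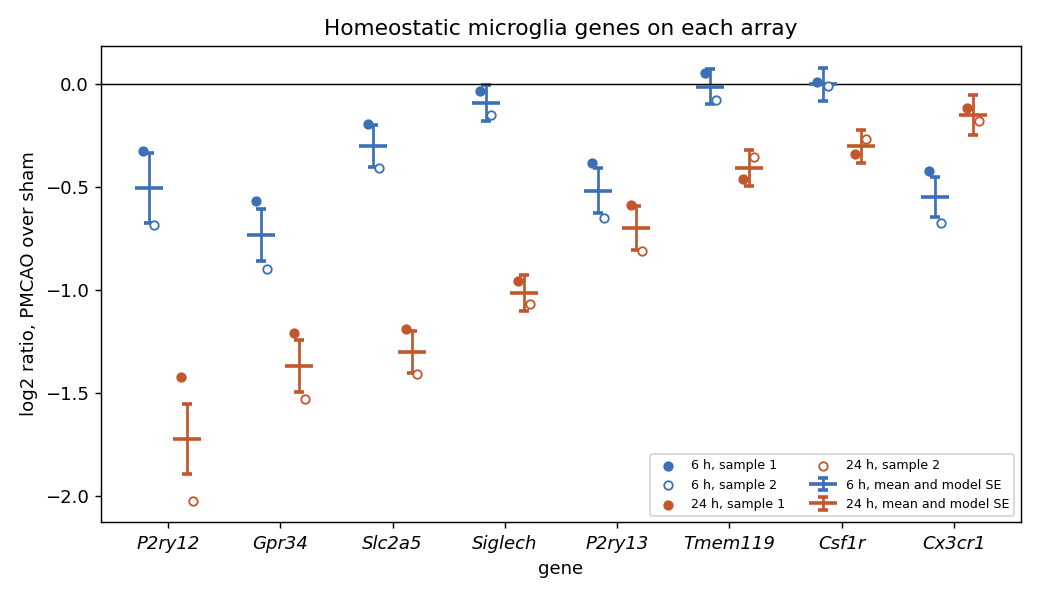
Log2 ratio of PMCAO over sham (vertical axis) of the 8 homeostatic microglia genes (horizontal axis) on each array, with the mean and the standard error of the limma model over the 2 arrays of each time; blue is 6 h, orange 24 h, filled points sample 1 and open points sample 2. All 24 h points lie below 0, from -2.02 for P2ry12 to -0.12 for Cx3cr1, and Cx3cr1 is the gene with its 6 h points below its 24 h points.

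These calls moved with the arrays and the processing. With either 24 h array left out, 5 of the 8 passed at 6 h (P2ry12, P2ry13, Gpr34, Cx3cr1 and Slc2a5), where 357 of all genes or 1.87% were lower, and with median centring in place of loess 0 of the 8 passed at 24 h (3 at an unadjusted p under 0.05), where 0 genes were lower and 13 higher in limma.

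Among the receptors for nucleotides and lipids, P2ry12 had the largest decrease. In sham its normalised log2 signal was 10.14 and 10.35 at 6 h and 9.93 and 10.38 at 24 h, for samples 1 and 2. In PMCAO it was 9.82 and 9.66 at 6 h and 8.51 and 8.36 at 24 h. Both PMCAO samples lay below both sham samples at each time, and those of 24 h lay below those of 6 h. The log2 ratio was -0.32 and -0.68 on the 6 h arrays and -1.42 and -2.02 on the 24 h arrays. The mean of the 2 arrays was -0.50 ± 0.17 at 6 h and -1.72 ± 0.17 at 24 h, a 3.30-fold lower signal. The later ratio was lower by a log2 difference of -1.22 ± 0.24. Each ± of a ratio is the SE of the limma model. Its spread is pooled over all 4 arrays and moderated across genes, so the SE of a gene is the same at both times.

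P2ry13, the other ADP receptor, was lower by a like amount at both times. Sham signals were 8.79 and 9.03 at 6 h and 8.94 and 9.17 at 24 h on the log2 scale, and PMCAO signals were 8.41 and 8.38 at 6 h and 8.36 and 8.36 at 24 h. PMCAO and sham samples did not overlap at either time. Its log2 ratio was -0.52 ± 0.11 at 6 h and -0.70 ± 0.11 at 24 h, a 1.62-fold lower signal at the later time, and the 2 ratios differed by -0.18 ± 0.15. P2ry13 ranked 41 from the lowest at 6 h and 169 at 24 h, while P2ry12 ranked 44 and then 3.

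Gpr34 was the lowest of the 8 at 6 h, with rank 11 among all genes. Its log2 signal in sham was 9.34 and 9.51 at 6 h and 9.10 and 9.45 at 24 h, against 8.77 and 8.61 in PMCAO at 6 h and 7.89 and 7.93 at 24 h. The PMCAO samples were below the sham samples at both times, with the 24 h ones lowest. The ratio was -0.57 and -0.90 on the 6 h arrays, with a mean of -0.73 ± 0.13, and -1.21 and -1.53 on the 24 h arrays, with a mean of -1.37 ± 0.13 or 2.58-fold lower. The ratio thus differed by -0.64 ± 0.18 between the times.

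P2ry12 and P2ry13 lie in a run of related receptor genes on chromosome 3. Of their named neighbours within 250 kb in the RefSeq table, Med12l, a Mediator subunit in whose gene the receptors are nested, was at -0.31 ± 0.15 at 24 h (limma adjusted p = 0.232) and P2ry14, a receptor for UDP-sugars, at -0.24 ± 0.10 (adjusted p = 0.184). Igsf10, an immunoglobulin-domain protein, rose by 0.48 ± 0.09 (limma adjusted p = 0.0298). Gpr171 was not well above background in any channel and was not tested.

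Siglech was close to sham at 6 h, Slc2a5 was somewhat lower, and both were far lower at 24 h. The log2 signal of Siglech was 8.21 and 8.33 in sham and 8.17 and 8.18 in PMCAO at 6 h, and 8.31 and 8.52 in sham and 7.35 and 7.45 in PMCAO at 24 h. Its PMCAO samples at 6 h were just under the lower sham sample, and at 24 h they were far under both. The log2 ratio went from -0.09 ± 0.09 at 6 h to -1.01 ± 0.09 at 24 h, a 2.02-fold lower signal, with a difference of -0.92 ± 0.12. From Agilent's processed signals in place of the normexp and loess values the 24 h ratio of Siglech was -1.62.

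For the fructose transporter Slc2a5, sham signals were 9.90 and 9.98 at 6 h and 9.87 and 10.004 at 24 h, and PMCAO signals 9.70 and 9.57 at 6 h and 8.682 and 8.599 at 24 h. Sham hardly moved between the times while PMCAO was lower at 24 h in both samples. Its log2 ratio was -0.30 ± 0.10 at 6 h and -1.30 ± 0.10 at 24 h, or 2.46-fold lower, and the difference was -0.998 ± 0.14. Siglech and Slc2a5 are the 2 of the 8 that were lower by the limma test of the difference between the times (0.298% of all genes were lower by it and 1.3% higher), a count from which nothing is read, since the genes were listed with both ratios known. The count also changed with the processing and with each array left out. None of the 8 passed with Agilent's processed signals or the deposited series table (5 before adjustment at 0.05 in limma, for either). There 0.0418% and 0.0366% of all genes were lower. With median centring none passed either (0 before adjustment in limma), where 0 of all genes were lower. Siglech alone passed with the filter on all 8 channels, where 0.174% of genes were lower. With sample number as a replicate block 5 of the 8 passed, where 8% of all genes were lower.

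Tmem119 and Csf1r, the genes of the set with the smallest 6 h ratios, were lower modestly at 24 h. Tmem119 stood at 10.79 and 10.84 in sham and 10.85 and 10.76 in PMCAO at 6 h, so the groups overlapped, and at 11.04 and 10.90 in sham and 10.58 and 10.55 in PMCAO at 24 h, where they did not. Its log2 ratio was -0.01 ± 0.09 at 6 h, with 1 array on either side of 0, and -0.41 ± 0.09 at 24 h, a 1.32-fold lower signal. Its count among the genes called at 24 h was lost without either 6 h array.

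Csf1r read 11.67 and 11.66 in sham and 11.68 and 11.65 in PMCAO at 6 h, and 11.98 and 11.93 in sham and 11.64 and 11.66 in PMCAO at 24 h. The 24 h sham samples stood above the other 6 channels, and those 6 were close together. The log2 ratio was 0.00 ± 0.08 at 6 h and -0.30 ± 0.08 at 24 h, or 1.23-fold lower. The other 2 probes of Csf1r were dimmer. They gave -0.27 and -0.04 for the first and -0.50 and 0.39 for the second on the 24 h arrays, so the second pointed both ways.

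Cx3cr1 had its lower ratio at 6 h, while the other 7 had theirs at 24 h. Its log2 signal was 10.05 and 10.18 in sham and 9.63 and 9.51 in PMCAO at 6 h, and 10.22 and 10.32 in sham and 10.10 and 10.14 in PMCAO at 24 h. PMCAO lay below sham at both times, with a wide gap at 6 h and a narrow one at 24 h. The log2 ratio was -0.55 ± 0.10 at 6 h, 1.46-fold lower and rank 34 from the lowest, and -0.15 ± 0.10 at 24 h, 1.11-fold lower and rank 4727, so that it was higher by 0.40 ± 0.14 at the later time. This difference was not among those called by limma at 0.05, nor were those of P2ry12, P2ry13, Gpr34, Tmem119 and Csf1r. The dimmer probe, well above background in PMCAO on 2 of 4 arrays and in sham on 4, gave -0.07 and -0.23 at 6 h and 0.02 and 0.04 at 24 h. With the mean of both probes the 24 h ratio of Cx3cr1 was -0.06.

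**Figure D2:**
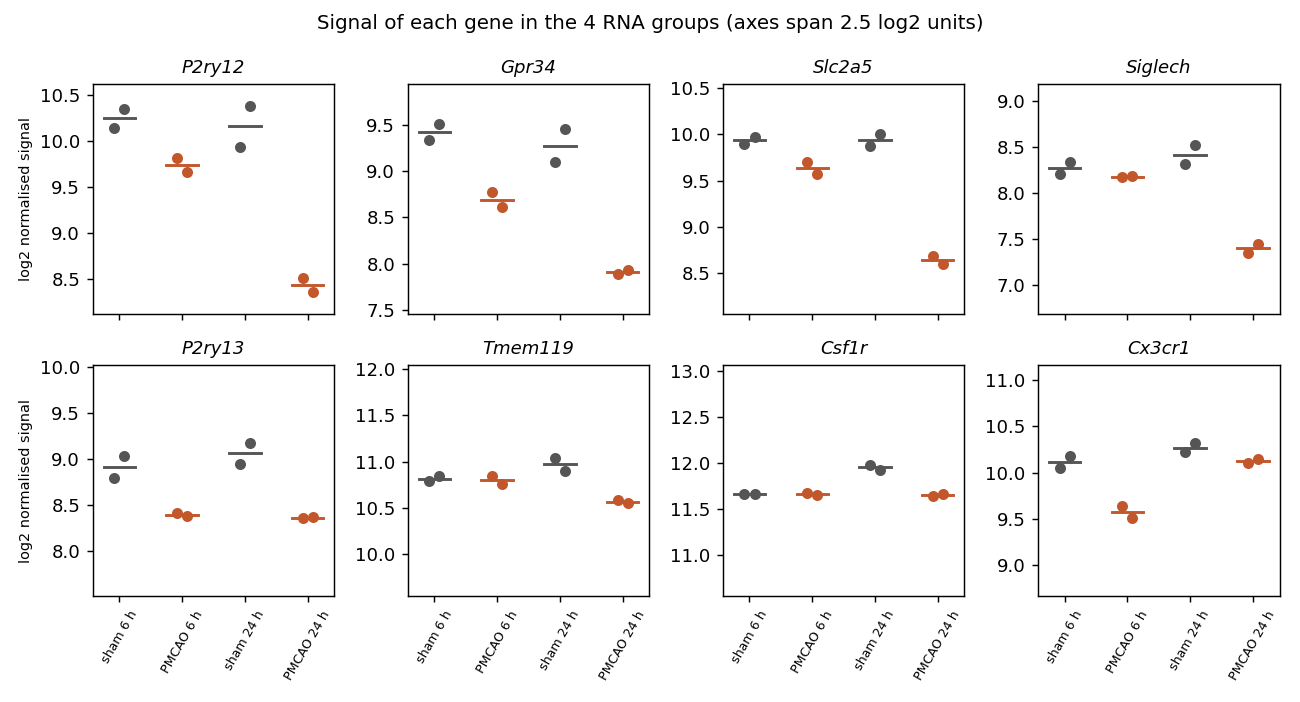
Normalised log2 signal (vertical axis, spanning 2.5 units in each panel) of the 8 genes in sham (grey) and PMCAO (orange) at 6 h and 24 h (horizontal axis); points are the 2 samples of a group and lines their mean, and panels have separate origins because signals of different probes cannot be compared. For P2ry12, Gpr34, Slc2a5 and Siglech the 24 h PMCAO samples stand apart below the other 3 groups, while for Csf1r the 24 h sham samples stand above.

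The order of the 4 groups differed between genes. P2ry12 and Gpr34 ran from sham at 6 h through sham at 24 h and PMCAO at 6 h to PMCAO at 24 h. P2ry13, Siglech, Slc2a5 and Tmem119 had the same order with the sham groups exchanged. The 2 sham groups overlapped for P2ry12, Gpr34, P2ry13, Siglech and Slc2a5, and the other neighbours in the order of those 5 did not. For Tmem119 the neighbours that overlapped were sham and PMCAO at 6 h. Cx3cr1 ran from sham at 24 h through PMCAO at 24 h and sham at 6 h to PMCAO at 6 h, with the middle pair overlapping. Csf1r was highest in sham at 24 h, and the other 3 groups overlapped with their neighbours. Both PMCAO levels lay below both sham levels for 6 of the 8 genes at 6 h and for 8 at 24 h, beside 22.6% and 28.4% of all genes at the 2 times.

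Sham at 24 h against sham at 6 h is a contrast that the choice of the 8 genes did not name, although it uses the same sham channels. It asks whether the genes moved with time after surgery and saline without occlusion. In a limma separate-channel model 0 of the 8 passed (1 at an unadjusted p under 0.05), where 1.59% of 19120 genes were lower at 24 h and 1.89% higher. The model held no dye term, and its estimated correlation between the 2 channels of a spot was negative, at -0.415. Its standard errors and p-values rest on that estimate, and the cause of the negative value was not tested. The differences ran from -0.15 ± 0.13 for Gpr34 (limma adjusted p = 0.558) to 0.29 ± 0.07 for Csf1r (adjusted p = 0.0549). They were -0.09 ± 0.14 for P2ry12 (limma adjusted p = 0.762), 0.15 ± 0.11 for P2ry13, 0.14 ± 0.10 for Siglech, 0.16 ± 0.08 for Tmem119, 0.15 ± 0.08 for Cx3cr1 and 0.00 ± 0.08 for Slc2a5, with limma adjusted p-values from 0.312 to 0.996. Over the 8 the median was 0.15. PMCAO at 24 h against PMCAO at 6 h, given as a description, was -1.31 for P2ry12, -0.997 for Slc2a5, -0.78 for both Gpr34 and Siglech, -0.24 for Tmem119, -0.03 for P2ry13, -0.01 for Csf1r and 0.55 for Cx3cr1. The groups of different times never shared an array, so these contrasts rest on the scaling between arrays: without it the sham difference of P2ry12 was 0.08, that of Csf1r 0.49, and 0 genes passed in limma in either direction (before adjustment, 1173 were higher and 159 lower at 0.05), while the median of all genes moved from -0.01 to 0.08. In all, 361 genes were higher and 304 lower with the scaling, and without 6 h sample 1 or 2 the counts were 35 or 32 higher and 70 or 68 lower. With quantile scaling in its place, Csf1r passed at 0.28.

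**Figure D3:**
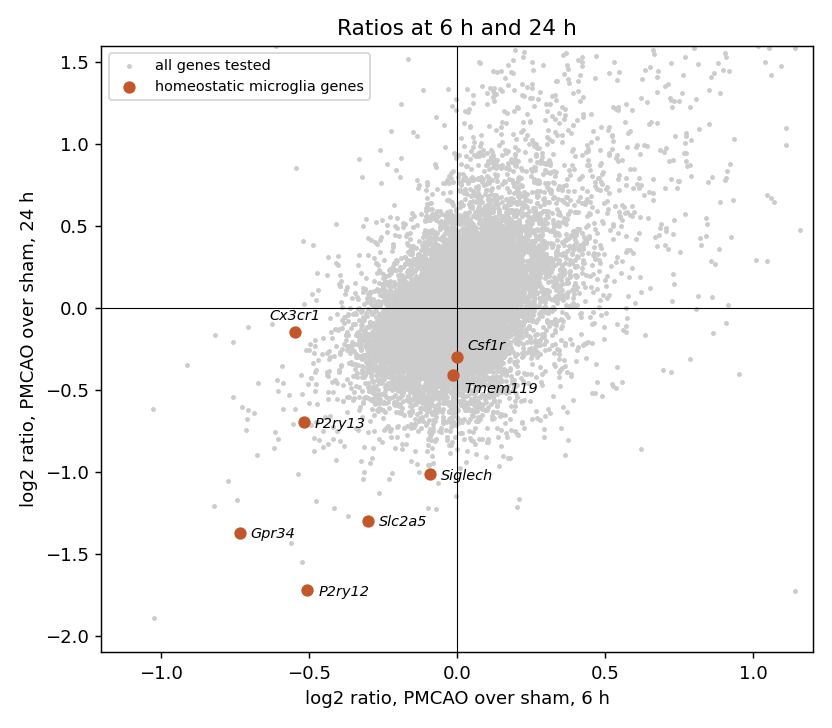
Log2 ratio of PMCAO over sham at 24 h (vertical axis) against 6 h (horizontal axis), with the 19130 genes tested in grey and the 8 homeostatic microglia genes in orange; 180 genes lie outside the axes. P2ry12, Gpr34 and Slc2a5 lie at the lower edge of the cloud, Cx3cr1 at its left edge, and Csf1r and Tmem119 inside it.

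By Euclidean distance over the 4 array ratios, the genes with a pattern closest to the median of the 8 were Nwd2 at 0.0836, Sln at 0.152, Akr1c14 and Dach1 at 0.157 and Slco1c1 at 0.166. Slco1c1 is a thyroid hormone transporter of the blood-brain barrier and choroid plexus, Sln a regulator of the calcium pump, and Dach1 a transcription cofactor. The 8 genes themselves lay between 0.285 for P2ry13 and 1.27 for P2ry12 from that median. The 5 genes were picked for being nearest, so their smaller distances are set by the choice.

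The gene lists here and below were chosen with earlier results of these data known, so nothing is read from their counts. Of all genes tested, 7.84% were higher and 4.52% lower at 24 h by limma. Other genes enriched in resting microglia moved in both directions. Of 25 tested, 5 were lower and 4 higher at 24 h by limma, with a median log2 ratio of -0.03. At 6 h 0 passed (4 higher and 0 lower before adjustment at 0.05). Crybb1, a crystallin, fell by 0.73 on the log2 scale at 24 h (± 0.12, adjusted p = 0.0178), Selplg, the ligand of P-selectin, by 0.71 (± 0.09, adjusted p = 0.01) and Olfml3, a secreted glycoprotein, by 0.59 (± 0.08, adjusted p = 0.0126), each on both arrays. Ltc4s, which makes leukotriene C4, and the tetraspanin Upk1b were the other genes that fell. Crybb1 was also lower in sham at 24 h than in sham at 6 h, by -0.76 (limma adjusted p = 0.00641). Among the genes that rose were Pros1, the vitamin K-dependent protein S, by 1.15 ± 0.09 (limma adjusted p = 0.00215), Ecscr, a surface protein known from endothelium, by 0.75 ± 0.10 (adjusted p = 0.0111) and the matrix glycoprotein Sparc by 0.46 ± 0.09 (adjusted p = 0.0355). Without either 6 h array, the count higher was 2, and 4 were lower.

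Markers shared by microglia and other myeloid cells rose at 24 h in part. Of 24 tested, 11 were higher and 0 lower by limma at 24 h (13 and 1 before adjustment at 0.05), with a median of 0.49, and 0 passed at 6 h (3 higher before adjustment). The median per array was 0.11 and 0.11 at 6 h and 0.32 and 0.53 at 24 h. Cd68, a lysosomal protein of phagocytes, rose by 1.11 ± 0.09 (limma adjusted p = 0.00233), the leukocyte tetraspanin Cd53 by 1.06 ± 0.09 (adjusted p = 0.00287) and Cyba, a subunit of the phagocyte oxidase, by 0.95 ± 0.09. Aif1, known as Iba1, was at -0.34 ± 0.08 (limma adjusted p = 0.0625), the phagocytic receptor Trem2 at -0.18 ± 0.10 and the integrin Itgam at 0.14 ± 0.09, and these 3 did not pass. With either 24 h array left out 1 of the 24 was called lower.

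Ligands of receptors in the set, related enzymes and genes of the TGF-beta pathway were looked at as a list of 15. Cx3cl1, the neuronal ligand of Cx3cr1, fell by 0.87 on the log2 scale at 24 h (± 0.10, limma adjusted p = 0.00582), with -0.76 and -0.99 on its arrays, and was at -0.10 at 6 h (adjusted p = 0.973). Cx3cr1 itself had its lower ratio at 6 h. The limma test of the change in Cx3cl1 between the times gave an adjusted p of 0.0733. Csf1, a ligand of Csf1r, rose by 0.68 ± 0.09 at 24 h (limma adjusted p = 0.00875), and Il34, the other ligand, was at -0.27 ± 0.14 (adjusted p = 0.296). Pla1a, a phospholipase that releases the lysophosphatidylserine read by Gpr34, rose by 1.48 ± 0.10 (limma adjusted p = 0.000959). Of the enzymes that break down extracellular nucleotides, Nt5e, which makes adenosine from AMP, rose by 0.87 ± 0.13 (limma adjusted p = 0.0155) and Entpd1 was at 0.08 ± 0.08 (adjusted p = 0.594). TGF-beta sustains the resting state of microglia. Of its ligands and receptors, Tgfb1 and Tgfbr2 rose by 0.76 ± 0.09 and 0.62 ± 0.09 at 24 h (limma adjusted p = 0.00593 and 0.0123). The others did not pass: Tgfb2 was at -0.21 ± 0.08, Tgfb3 at 0.15 ± 0.08 and Tgfbr1 at -0.20 ± 0.24 (limma adjusted p = 0.174, 0.31 and 0.647). Nrros, which holds latent TGF-beta on microglia, was the member of this list that rose at 6 h, by 0.85 ± 0.09 (limma adjusted p = 0.0235), a call that was lost without either 6 h array and with median centring. In all 6 of the 15 rose and 1 fell at 24 h, and with either 24 h array left out 2 fell.

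Relatives of the 8 genes were counted in 4 lists. Of 14 other nucleotide and adenosine receptors tested, 3 rose at 24 h and 1 fell. P2ry2, a receptor for ATP and UTP, rose by 1.72 ± 0.12 (limma adjusted p = 0.00103), P2ry6, a receptor for UDP linked to phagocytosis, by 0.95 ± 0.08 (adjusted p = 0.0026) and the ion channel P2rx5 by 0.41 ± 0.08, while Adora2a, an adenosine receptor abundant in the striatum, fell by 1.06 (± 0.16, limma adjusted p = 0.014). Without 24 h sample 1, 5 rose and 2 fell. Of 9 other Slc2 hexose transporters, 3 rose at 24 h and 0 fell by limma (1 at an unadjusted p under 0.05), Slc2a4 by 0.81 ± 0.11 (adjusted p = 0.00981), Slc2a3 by 0.40 ± 0.08 and Slc2a10 by 0.38 ± 0.08. Without 24 h sample 1 there were 5 higher and 1 lower, and with Agilent's processed signals 1 higher.

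Among 8 other Siglecs and partners of Dap12, 4 rose at 24 h and 0 fell by limma (0 at an unadjusted p under 0.05). Tyrobp, the adaptor through which Siglech signals, was 1 of them at 0.65 ± 0.10 (limma adjusted p = 0.015), beside Trem1, a receptor of neutrophils and monocytes, at 1.4998 ± 0.09 (adjusted p = 0.000717), Trem3 at 0.55 ± 0.10 and Hcst. With the filter on probes well above background in all 8 channels 2 of these calls were left. Among 8 colony-stimulating factor receptors and kinases related to Csf1r, Csf2rb and Csf2rb2, the signalling chains of the receptors for GM-CSF and related cytokines, rose by 1.69 ± 0.09 and 1.48 ± 0.10 (limma adjusted p = 0.000537 and 0.0011). The other 6 did not pass, but 2 of them did without 24 h sample 2, and 1 was called lower without 24 h sample 1.

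Of 13 transcription factors of microglia tested, 1 rose at 24 h by limma and 0 fell (1 at an unadjusted p under 0.05), shares near the 7.84% of all genes higher and 4.52% lower. Sall1, the factor that sets microglia apart from other macrophages, was at 0.13 ± 0.09 (limma adjusted p = 0.431) and Irf8 at 0.43 ± 0.12 (adjusted p = 0.0746). Spi1, which encodes PU.1, was not tested, because its probe was not well above background on both arrays of any group. With Agilent's processed signals that call was lost, and without 24 h sample 1 or 2 the count higher was 3 or 2, with 2 lower without sample 1.

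Many microglia activation genes and markers of other myeloid cells were higher at 24 h beside the lower homeostatic genes. By limma 7.84% of all genes tested were higher at that time. As with the other lists, chosen with earlier results known, the counts are a description. Of 19 activation genes 12 rose at 24 h and 0 fell by limma (1 at an unadjusted p under 0.05), with a median of 0.79, led by the secreted phosphoprotein Spp1 at 2.98 ± 0.11, the galectin Lgals3 at 2.83 ± 0.10 and the chemokine Ccl6 at 2.40 ± 0.09. Apoe was at -0.15 ± 0.25 and Axl at 0.20 ± 0.08, and neither passed. Of 11 perivascular macrophage markers 4 rose at 24 h, Pf4, Lyve1, F13a1 and Cd163, and 0 fell by limma (0 at an unadjusted p under 0.05). Of 10 monocyte markers 7 rose and 0 fell (0 unadjusted by limma), with a median of 0.95, among them Chil3 at 4.37 ± 0.13 and Ccr2 at 0.42 ± 0.08. Of 12 neutrophil markers 9 rose and 0 fell (0 unadjusted by limma), with a median of 1.32, and S100a9 was at 5.84 ± 0.10. Camp, Elane and Ly6g among the neutrophil markers and Ly6c2 among the monocyte markers were not tested.

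The summed linear signal of the neutrophil markers was 3834 to 4211 in sham and 14120 to 15070 in PMCAO at 6 h, and 2990 to 3176 in sham and 66670 to 77570 in PMCAO at 24 h. That of the monocyte markers was 10240 to 11600 in sham, 11420 to 11860 in PMCAO at 6 h and 24940 to 25340 in PMCAO at 24 h. That of the perivascular macrophage markers was 4888 to 5226 in sham, 5528 to 5964 in PMCAO at 6 h and 7637 to 8511 in PMCAO at 24 h. That of the 8 homeostatic genes was 9569 to 11090 in sham, 8268 to 8722 in PMCAO at 6 h and 7334 to 7338 in PMCAO at 24 h. In each such sum the brightest probes weigh most. Among the 8 these were Csf1r and Tmem119, with a mean log2 signal of 11.67 and 10.82 in sham at 6 h. Their 24 h log2 ratios were only -0.30 and -0.41. Neuron markers had 0 of 10 past limma at 24 h (1 lower at an unadjusted p under 0.05), with a median of -0.15, and oligodendrocyte markers 0 of 10 (1 higher and 2 lower before adjustment), with a median of 0.01. Without 24 h sample 2, 5 of the neuron markers were called lower. Astrocyte markers had 4 of 9 higher, Gfap among them at 1.248 ± 0.12, and endothelial markers 4 of 9 higher and 1 lower, the transporter Slco1a4 at -0.62 ± 0.10. At 6 h the neutrophil genes S100a9, S100a8 and Retnlg were higher by 2.61 ± 0.10, 1.92 ± 0.10 and 1.78 ± 0.20 (limma adjusted p = 0.00385, 0.00437 and 0.0263), calls lost with median centring. Slco1a4 was lower at 6 h as well, at -1.03 ± 0.10 (limma adjusted p = 0.017), a call lost with median centring and without 6 h sample 2 (adjusted p = 0.0997). The part of these cell types in the lower signal of the 8 genes was not tested.

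**Figure D4:**
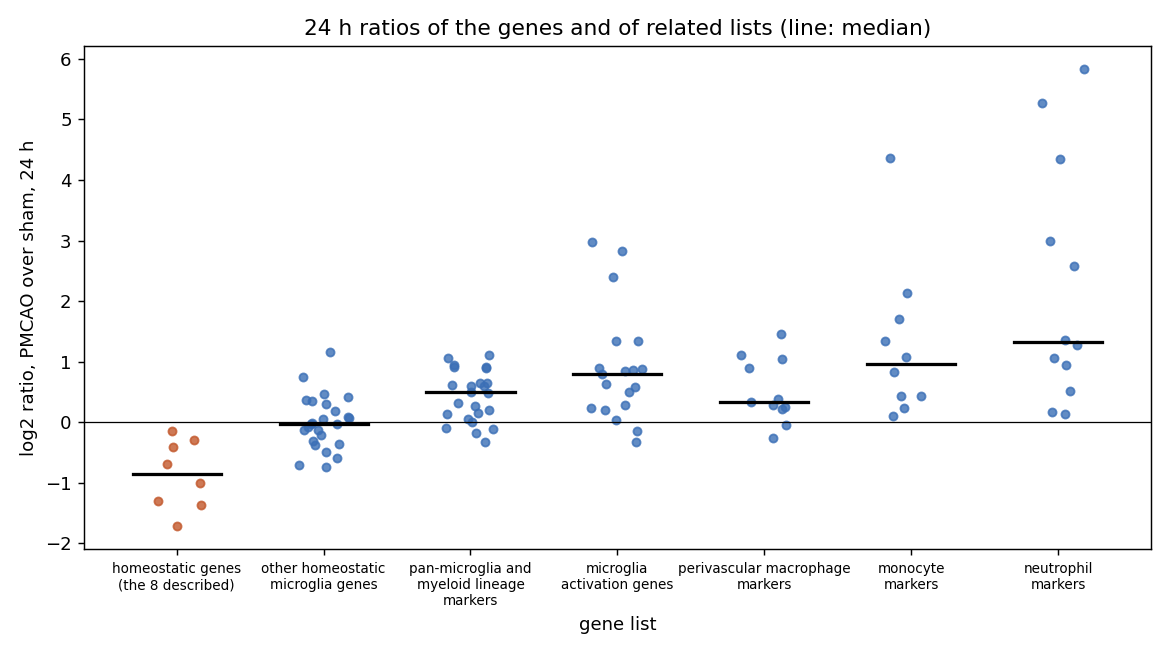
Log2 ratio of PMCAO over sham at 24 h (vertical axis) of the tested genes in 7 lists (horizontal axis); each point is a gene and each line the median of its list. The 8 homeostatic genes lie between -1.72 and -0.15, the other homeostatic genes on both sides of 0 between -0.73 and 1.15, and the neutrophil markers between 0.13 and 5.84.

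Of all genes tested, 7.84% were higher and 4.52% lower by limma at 24 h, and 0.815% and 0.0366% at 6 h. Beside these shares, 73 genes over all gene lists were higher and 8 lower at 24 h, and 4 higher and 1 lower at 6 h. Without 24 h sample 1 or 2 the lower count at 24 h was 28 or 17, and the 6 h counts became 32 and 7 without either of them. With median centring in place of loess, 4 list genes were higher and 0 lower at 24 h in limma. The cause was not tested.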

How the data were processed

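Gene expression was read on 4 two-colour Agilent arrays. Per the file headers, the scanner tables come from Agilent Feature Extraction (version 9.5.3.1) and give the intensity of each spot and its log10 ratio of red over green signal. That software had, per the file headers, already corrected the processed signals for background and dye. A second deposited table, of the whole series, holds 1 score per probe and array, equal in size to the linear Cy5 over Cy3 ratio for 100.0% of probes within rounding. What its sign and any centring stand for is unknown (column medians -0.96, 0.96, -0.91 and 0.95), so it was turned by the dyes in the labels and used as an alternative. Other upstream steps are not given in the sources used here.

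Background was corrected with normexp (offset 50) and dye bias by loess within arrays in limma 3.58.1 under R 4.3.3, with control spots at weight 0. Spots marked as outliers (112 to 142 on an array) were dropped, and saturated ones (0 to 2) stayed. Of the probes, 22951 were named by accession through a RefSeq table of GRCm38.p6, 6661 by symbol, 3097 by an older symbol, and 8465 kept the name of the file. The brightest probe stood for a gene. A gene was tested if both arrays of at least 1 RNA group read it well above background, which 19130 genes did. A model over all 4 arrays gave a log2 ratio per time, and a separate-channel model after Aquantile scaling compared times. P-values were adjusted by Benjamini-Hochberg over all genes tested. The number of arrays limits the precision of every value.

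The 8 genes and the lists were chosen with earlier results of these data known. From each list, up to 3 genes each way with the largest ratio past the test at a time were to be named, with the 5 nearest profiles. Ligands, adaptors, relatives, neighbours and well-known markers named for their role or position, and the members of small counts, stand outside that rule and were named after their values were seen. The motifs were chosen after the promoters were seen. Some genes of the lists are not reported here by name. Scripts were tested on simulated data. For the separate-channel model these held no dye effect and no correlation between the channels of a spot. Its p-values at the estimated correlation of -0.415 were therefore not checked. Background correction, scaling within and between arrays, the filter, the probe rule, the source table, a replicate block and each array left out were tried as alternatives.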

Additional observations from a re-analysis of the deposited data

Results flagged for a closer look

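These genes were singled out because their ratios differed between the times. Slc2a5 and Siglech, which belong to the 8 genes, had 24 h minus 6 h log2 differences of -0.9978 and -0.9212; they were listed with these ratios known, so their values are a description.

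Among the list genes 25 passed the limma test of the difference, adjusted over all genes, and all 25 were higher at 24 h. Those chosen for naming by their size in a list, 15 of the 25, included the phagocyte marker Cd68 at 0.9592 (adjusted p = 0.0396), the perivascular marker F13a1 at 0.9895 (adjusted p = 0.0409), the cytokine receptor chains Csf2rb2 at 1.058 (adjusted p = 0.0384) and Csf2rb at 1.141 (adjusted p = 0.0229), and the hyaluronan receptor Cd44 at 1.175 (adjusted p = 0.0173). Others were the phospholipase Pla1a at 1.312 (limma adjusted p = 0.0192), the receptor Trem1 at 1.427 (adjusted p = 0.0132), the chemokine Ccl6 at 1.755 (adjusted p = 0.00866), arginase Arg1 at 2.076 (adjusted p = 0.00972) and Spp1 at 2.469 (adjusted p = 0.0057). The largest differences of the 15 were those of Retnlg at 2.575 (limma adjusted p = 0.0202), Lgals3 at 2.707 (adjusted p = 0.00454), S100a9 at 3.223 and S100a8 at 3.35 (adjusted p = 0.00276 for both) and Chil3 at 3.873 (adjusted p = 0.00369). Sham signal was also lower at 24 h than at 6 h for Lgals3, by -0.89, and for S100a8, by -1.15 (separate-channel limma adjusted p = 0.00351 and 0.0382). PMCAO at 24 h against PMCAO at 6 h was 1.82 for Lgals3 and 2.20 for S100a8. Contrasts of 1 RNA group between the times rest on the scaling between arrays. Without it 0 genes passed in limma for sham in either direction. The 24 h ratio of the 15 was above 0 on both arrays. Of the other 10, the endothelial marker Ly6c1 turned from below 0 on both 6 h arrays to above 0 on both 24 h arrays, with a difference of 0.8499 (limma adjusted p = 0.0375). It was chosen after its values were seen, and its sham signal was lower at 24 h than at 6 h by -0.64 (limma adjusted p = 0.00409).

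For Slc2a10, Aldh1l1 and Sparc both 6 h arrays lay below 0 and both 24 h arrays above it, with differences of 0.4054, 0.5709 and 0.5717. Sall1 and Axl did likewise, with 0.1896 and 0.2213. Aif1 and P2ry14 went from above to below 0, with -0.4922 and -0.2573. None of these 7 differences passed the limma test (adjusted p = 0.129 to 0.621).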

How the results depend on the processing

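At 24 h all 8 genes stayed below 0 under all 12 alternatives of the ratio model, and at 6 h all but Tmem119 and Csf1r did. Many of these alternatives could not change a sign. The filter changes, the replicate block, a time fitted alone and leaving out an array of the other time used the same values. With these the median of the 8 stayed at -0.86 at 24 h. Leaving out an array of the same time restated the ratio of its partner, and the deposited table repeats Agilent's ratios. With Agilent's processed signals the median of the 8 at 24 h was -1.24, 22 genes were lower at 6 h, the difference between times had 54 higher and 8 lower, and 10 list genes were higher at 6 h. The deposited series table gave -1.245, 22, 51, 7 and 11 for the same values. With median centring in place of loess, limma gave 13 genes higher and 0 lower at 24 h (283 and 18 at an unadjusted p under 0.05), 0 and 0 at 6 h (62 and 1 unadjusted) and 0 and 0 for the difference (61 and 4 unadjusted). Under it 4 list genes were higher and 0 lower at 24 h, 0 and 0 at 6 h, and 0 of the 8 genes passed at 24 h. The cause was not tested.

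With probes well above background in all 8 channels the difference had 148 higher and 30 lower, out of fewer genes tested. The mean of all probes gave 3 genes lower at 6 h. Sample number, which is also the dye, was entered as a replicate block, with 1132 genes higher and 572 lower at 6 h, 3916 and 3685 at 24 h, and 1685 and 1531 for the difference. With that block 34 list genes were higher and 7 lower at 6 h and 29 lower at 24 h, and of the 8 genes 5 passed at 6 h and 7 at 24 h. The deviations of same-numbered arrays correlated at 0.718 across genes, and with 2 pairs the pairing cannot be told apart from the dye. The 6 h pair by itself gave 943 genes higher and 357 lower, 32 and 7 list genes, and 5 of the 8.

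With each array left out in turn, the lone array of a time was assumed to vary like the other pair, and its dye effect did not cancel. Counts at 6 h ran from 76 to 943 higher and from 0 to 357 lower in limma, and at 24 h from 1238 to 2921 higher and from 608 to 2842 lower. The difference had 168 to 1567 higher and 14 to 1353 lower. List genes ran from 3 to 32 higher and 0 to 7 lower at 6 h, and from 8 to 28 lower at 24 h. Of the 8 genes, 0 to 5 passed at 6 h.

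For sham at 24 h against 6 h, the median of the 8 was 0.12 with quantile scaling, 0.19 with no scaling between arrays, 0.10 with processed signals and 0.0367 to 0.192 with each array left out. The gene counts were 0 higher and 0 lower in limma without scaling (1173 and 159 at an unadjusted p under 0.05) and 492 lower with dye as a replicate block, and ran from 32 to 760 higher and 68 to 692 lower with each array left out. P2ry12 turned to 0.0779 without scaling and ranged from -0.31 to 0.14 with each array left out, Slc2a5 from -0.0644 to 0.0665 and Gpr34 from -0.323 to 0.0304. For PMCAO at 24 h against 6 h the median was -0.36 without scaling and -0.67 with processed signals. The probe standing for each of the 8 genes was well above background in every channel. The number of arrays limits the precision.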
